A study of Mus musculus with 9 samples.

Results

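The transcripts described here are those of the ubiquitin-specific proteases (USPs) in mouse round spermatids (RS). The genes were chosen by name, as every listed gene whose symbol starts with Usp followed by a digit and which is not a pseudogene marked -ps. There were 58 such symbols, and 52 of them had at least 10 reads summed over the 9 libraries, out of 25128 genes that passed the same minimum. Not all of the 52 encode a USP. Usp6nl encodes a GTPase-activating protein for the endosomal GTPase Rab5, and Usp46os1 and Usp46os2 are transcribed antisense to Usp46. These are named apart, which leaves 49 genes named for the protease.

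USPs are the largest family of deubiquitinases, cysteine proteases that remove ubiquitin from proteins and so reverse the work of ubiquitin ligases. A member can rescue a protein from the proteasome, return a receptor from the endosome or take ubiquitin off histones H2A and H2B. Spermatids replace most of their histones, discard much of their cytoplasm and build an acrosome, a vesicle made by membrane traffic, and ubiquitin marks proteins in each of these steps.

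RS are haploid cells that have completed meiosis. They were sorted from adult Stra8-Tom males, older than 10 weeks and on a C57Bl/6 background, in which a Cre driven by the Stra8 promoter switches on tdTomato in germ cells, and the RS gate was the one with the lowest tdTomato signal. The labels give the genotype of all 9 samples as WT. Sorted cells were kept for 24 h in culture in one of 3 ways, with 3 libraries each, and all 9 cultures held 0.15% DMSO. The vehicle group (libraries 1 to 3) received nothing else. The oxamate group (libraries 4 to 6) received 24 mM oxamate, which blocks all forms of lactate dehydrogenase, one source of L-2-hydroxyglutarate (L-2HG) in these cells. The third group (libraries 7 to 9) received 24 mM oxamate together with 0.3 mM octyl-L-2HG, an ester of L-2HG that enters cells. The first comparison asks what changed when the enzyme was blocked, and the second what changed when L-2HG was given back. No group received octyl-L-2HG alone. The 3 libraries of a group came from triplicate incubations. Whether these used cells of separate animals is not given in the sources used here, so the p-values measure the spread between these libraries, which may be technical.

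Promoter letters are shown for 4 of the members that changed, each with at least 100 bases before the start site that lie outside annotated exons and outside the span of the gene itself in RefSeq. They come from the RefSeq promoter table of build GRCm38.p6, which is not the build the reads were aligned to. Capitals mark a match to GGGCGG, the GC box bound by Sp factors, or to CCGGAAG, a motif of ETS factors, on either strand. Usp30 (chr5:114100083-114100298, plus strand) and Usp38 (chr8:81015014-81015142, minus strand) were raised by oxamate. Usp8 (chr2:126707078-126707200, plus strand) and Usp28 (chr9:48985135-48985318, plus strand) were raised by octyl-L-2HG on top of oxamate. Usp11, Usp29 and Usp47 also changed and met the same limit of 100 bases but are not shown. The stretches of Usp29 and Usp47 that met it held no GGGCGG and no CCGGAAG. Each stretch printed here is written 5′ to 3′ in the direction of its gene.
Usp30: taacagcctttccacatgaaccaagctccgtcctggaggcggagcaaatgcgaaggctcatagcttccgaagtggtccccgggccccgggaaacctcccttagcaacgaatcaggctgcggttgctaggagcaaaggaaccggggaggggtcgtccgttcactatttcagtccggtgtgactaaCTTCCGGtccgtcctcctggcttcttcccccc
Usp38: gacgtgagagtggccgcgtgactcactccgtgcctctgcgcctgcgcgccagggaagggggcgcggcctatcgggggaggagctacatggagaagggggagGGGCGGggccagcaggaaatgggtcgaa
Usp8: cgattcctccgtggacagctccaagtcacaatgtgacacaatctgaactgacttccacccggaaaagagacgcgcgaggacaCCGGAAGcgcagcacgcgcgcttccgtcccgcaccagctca
Usp28: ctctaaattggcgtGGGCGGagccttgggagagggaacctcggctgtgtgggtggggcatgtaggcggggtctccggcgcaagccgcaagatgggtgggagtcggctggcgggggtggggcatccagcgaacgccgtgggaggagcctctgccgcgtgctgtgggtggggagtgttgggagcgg
In the 250 bases before the start site, 25 of the 40 members with an entry (62.5%) held GGGCGG on either strand, against 32.9% of all 27025 promoters in the table. CCGGAAG stood before 7 of the 40 members (17.5%), against 7.05% of all promoters. The 7, counted over all 250 bases and so beyond the stretches printed, were Usp8, Usp11, Usp16, Usp24, Usp30, Usp36 and Usp38. The CCAAT motif was before 11 members (27.5%), against 34.5% of all, and TATAAA before 2 (Usp19 and Usp40), against 13.0%. The core of the cAMP response element, TGACG, stood before 9 members (22.5%), against 17.9%. The median GC content of these 250 bases was 64.4% in the members and 52.0% in all promoters. The 27025 promoters were not limited to genes expressed in RS. No set matched to the members for expression or GC content was compared. A match is a description of the letters and not a bound site.

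Counted reads per library ranged from 32339533 to 39888396. Normalized counts are the authors' counts divided by a size factor per library, between 0.867 and 1.125, and are the values given below for single libraries. Within each group the libraries differed by more than sampling noise, least between oxamate libraries 5 and 6 and most between 4 and 6. Oxamate library 4 stood apart: of the 43 members that averaged 100 or more normalized counts, it was the lowest or the highest of its group for 39, as was vehicle library 1 for 37. Marker genes of round spermatids, 11 of 11 detected, summed to 2653 to 2741 CPM (counts scaled to the library total) with vehicle, 2470 to 2562 with oxamate and 2294 to 2319 with both compounds. Spermatocyte markers, 8 of 8 detected, lay between 509 and 609 in all groups. Summed markers of spermatogonia, Sertoli, Leydig, myoid, macrophage and endothelial cells were between 0.555 and 16.0, with 1 macrophage marker, Lyz2, at 0 in every library. The part of these marker shifts in the results below was not tested. In such bulk RNA, fewer cells of a type and less RNA per cell cannot be told apart.

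Most USP genes were transcribed in RS, over a wide range of levels. The members took 0.680% to 0.747% of the counted reads with vehicle, 0.699% to 0.794% with oxamate and 0.793% to 0.808% with both compounds, and the 10 most counted members held 72.9% to 75.9% of these reads. Per kilobase of exon, vehicle libraries held 8088 ± 416 normalized counts of Usp1 (mean ± SD, n = 3), which is at percentile 99.0 of all genes tested. Usp1 forms a complex with Wdr48 and removes ubiquitin from the DNA repair proteins FANCD2 and PCNA. Next came Usp8, an endosomal deubiquitinase found at the forming acrosome, with 5186 ± 399. Usp2, whose loss impairs male fertility in mice, followed with 3582 ± 109. Usp7, which stabilizes the p53 ligase MDM2, had 3096 ± 259.8, and Usp47, which acts in base excision repair, had 1932 ± 126. The means ± SD of these 5 did not overlap. Usp4, Usp42 and Usp44 followed at 1772 ± 136, 1646 ± 144 and 1578 ± 17.7 per kilobase. The mean ± SD of Usp4 overlapped with those of Usp47 and Usp42, and that of Usp42 also with that of Usp44. At the other end, Usp13, Usp17la and Usp22 had a mean normalized count under 10 over the 9 libraries. Usp22, the H2B deubiquitinase of the SAGA complex, had 0 reads in library 7, which allows up to 3, and between 5.72 and 13.8 normalized counts in the other libraries. Usp13 had 0 reads in libraries 5 and 6. The 6 symbols under the minimum were Usp27x with 9 reads in all, Usp18, which removes the ubiquitin-like protein ISG15, with 4, Usp17lc with 3, Usp17lb with 1, and Usp17ld and Usp17le with 0, a count that allows up to 3 reads by counting error. Members of the Usp17l group are near copies of each other, so reads could be split or dropped among them.

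**Figure D1:**
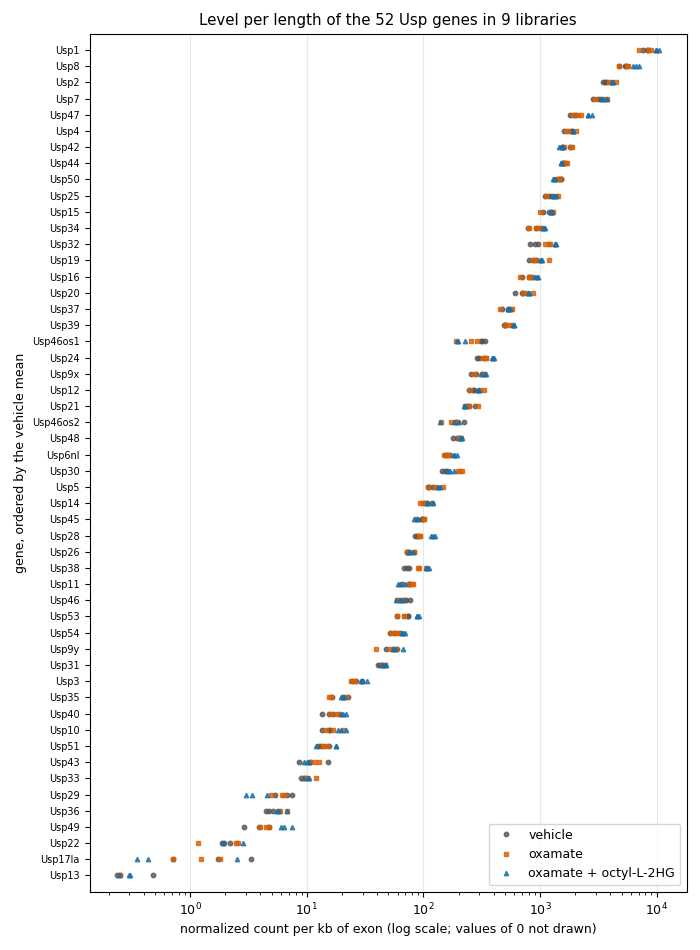
Normalized count per kilobase of exon (log axis) of each of the 52 genes in each library, ordered by the vehicle mean, with gray circles for vehicle, orange squares for oxamate and blue triangles for both compounds. Usp1 is at the top at 8088 in vehicle, and the groups are close together for most genes relative to the spread between genes.

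Oxamate alone raised 3 members, Usp30, Usp32 and Usp38, and lowered 0 in the quasi-likelihood F test of edgeR, adjusted by Benjamini-Hochberg over all 25128 genes. The 3 are 5.77% of the 52, against 3.96% of all genes tested, and the 0 lowered stand against 1.22%. Among the 43 members that averaged 100 or more normalized counts the share raised was 6.98%, against 8.07% of the 10715 genes at that level, of which 1.59% were lowered. These shares are close to the background. At an unadjusted p under 0.05, edgeR counted 9 members higher and 3 lower, and DESeq2 gave 6 and 3, with 4 and 0 after adjustment. No share of all genes was counted at the unadjusted threshold, with DESeq2 or with a library left out. The median log2 fold change was 0.07 over the members and -0.01 over all genes tested, and 0.09 and 0.01 at that level. Without library 4 the count raised was 6 and without library 6 it was 5, and the 3 named members were called under every alternative run.

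Usp30 sits on the outer mitochondrial membrane, where it takes off the ubiquitin that marks mitochondria for removal. Its normalized counts were 970.2, 868 and 919 in vehicle libraries 1 to 3, 1303, 1209 and 1251 in oxamate libraries 4 to 6, and 1102, 988 and 1029 in libraries 7 to 9 with both compounds. Each oxamate library was above each vehicle library, and the libraries with both compounds lay between them without overlap. Oxamate raised Usp30 by 0.45 ± 0.075 (log2 fold change ± SE, edgeR adjusted p = 0.000693), and with octyl-L-2HG added its difference from oxamate was -0.30 ± 0.075 (edgeR adjusted p = 0.0121). Against vehicle the value with both compounds was 0.16 ± 0.076 (edgeR adjusted p = 0.171), which missed the threshold. Usp30 was the 1 member that oxamate raised and octyl-L-2HG lowered, 1.92% of the members, against 1.09% of all genes tested. Both calls rest on the same oxamate libraries, so they are not independent, and their overlap was not tested. The fall was not called without library 8, at -0.26, or without library 9, at -0.30. Its exons share 329 bases with Alkbh2 on the opposite strand.

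Usp32 is a membrane-anchored USP of the late endosome that acts on the GTPase Rab7. It had normalized counts of 6291, 6991 and 7325 in vehicle libraries 1 to 3, 8404, 9220.4 and 9403 in oxamate libraries 4 to 6, and 10398, 10256 and 10525 in libraries 7 to 9 with both compounds. The 3 groups did not overlap and lay in the order vehicle, oxamate, both compounds. Its rise with oxamate was 0.40 ± 0.067 (log2 fold change ± SE, edgeR adjusted p = 0.000908). With both compounds it stood 0.58 ± 0.067 (edgeR adjusted p = 3.87e-06) above vehicle, while the further step from oxamate, 0.18 ± 0.067 (edgeR adjusted p = 0.0894), did not pass.

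Usp38, linked to interferon signalling through the kinase TBK1, gave a similar picture at a lower level. Its normalized counts were 433, 392 and 412 with vehicle, 511, 526 and 599.6 with oxamate and 642, 606 and 610.4 with both compounds. The groups again did not overlap. Usp38 was raised by 0.41 ± 0.085 (log2 fold change ± SE, edgeR adjusted p = 0.00518) with oxamate and stood 0.56 ± 0.084 (edgeR adjusted p = 5.62e-05) above vehicle with both compounds. The step between the treated groups was 0.16 ± 0.083 (edgeR adjusted p = 0.259). Usp38 shares 1174 exonic bases with an antisense gene, Gm9725, and the strand setting of the authors' counting is not given in the sources used here, so its reads and those of its partner may not be told apart.

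**Figure D2:**
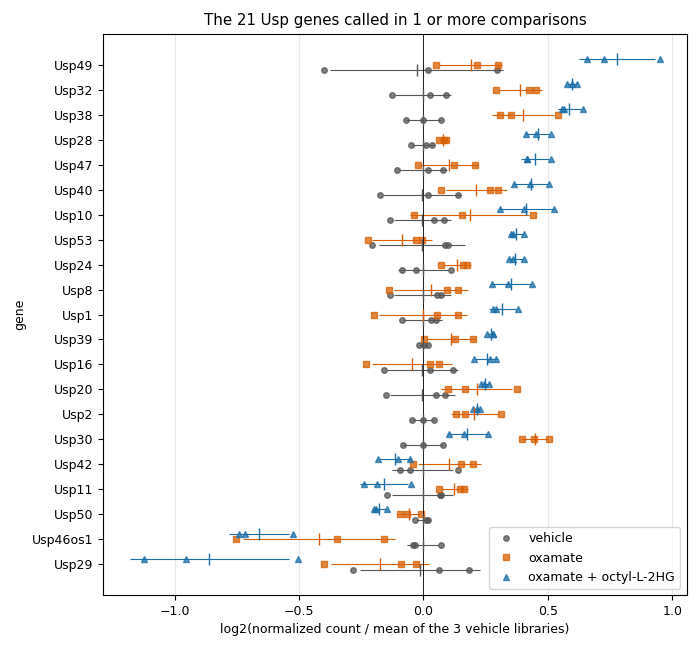
Log2 of the normalized count over the vehicle mean (x axis) for each of the 21 members called in 1 or more comparisons (y axis), with a point per library, a tick for the group mean and a bar for ± SD of the 3 libraries. Usp30 is highest with oxamate, Usp32 and Usp38 step up from vehicle through oxamate to both compounds, and Usp29 and Usp46os1 lie lowest with both compounds.

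Adding octyl-L-2HG to oxamate raised 7 members and lowered 4. The raised members were Usp1, Usp8, Usp16, Usp24, Usp28, Usp47 and Usp53, which are 13.5% of the 52, against 3.18% of all genes tested. Among members with a mean of at least 100 the share raised was 16.3%, against 7.06% of genes at that level. The lowered members were Usp11, Usp29, Usp30 and Usp42, which are 7.69%, against 8.06% of all genes. At a mean of at least 100 the share lowered was 6.98%, against 12.7%. The median log2 fold change was 0.03 over the members and -0.04 over all genes tested, and at a mean of at least 100 it was 0.05 over the members and 0.01 over the genes. Scaling by total counts in place of TMM gave 5 raised and 7 lowered, and DESeq2's size factors gave 9 and 2. Without library 4, 7 members were lowered, without library 5, 1, without library 7, 2 with 3 raised, and without library 8 or 9, 0, with 4 and 5 raised. For these other scalings and left-out libraries the share of all genes called was not counted.

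Among the DNA repair members, the rise of Usp1 had a size of 0.29 ± 0.073 (log2 fold change ± SE, edgeR adjusted p = 0.013). Its normalized counts were 28416, 31284 and 30876 in vehicle libraries 1 to 3, 26302, 31396 and 33250.4 in oxamate libraries 4 to 6, and 39268, 36926 and 36648 in libraries 7 to 9 with both compounds. Vehicle and oxamate overlapped, and the 3 libraries with both compounds were above all 6 others. Usp47, which deubiquitinates DNA polymerase beta, had 24692, 26940.2 and 28102 with vehicle, 26166, 28919 and 30683 with oxamate and 37913, 35479 and 35455 with both compounds. Here too the libraries with both compounds were above the other 6, by 0.32 ± 0.067 (edgeR adjusted p = 0.00332) against oxamate. Usp28, which binds the damage protein 53BP1 and stabilizes MYC, had 514, 493 and 523 with vehicle, 532, 541 and 544 with oxamate and 679, 697 and 727 with both compounds, again highest with both compounds, and a rise of 0.35 ± 0.077 (edgeR adjusted p = 0.00426). The rise of Usp1 was not called without library 7, at 0.26, and those of Usp47 and Usp28 were called under every alternative run.

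Usp8 joins endosomal sorting with the growth of the acrosome. It had normalized counts of 19817, 22566 and 22848 in vehicle libraries 1 to 3, 19752, 23213 and 23953 in oxamate libraries 4 to 6, and 29397, 27552 and 26328 in libraries 7 to 9 with both compounds. Vehicle and oxamate overlapped, and each library with both compounds was above both. The rise over oxamate was 0.29 ± 0.074 (log2 fold change ± SE, edgeR adjusted p = 0.013), and it was not called without library 7 or without library 8. Usp50, a little-studied USP of which RS held 1486 ± 28.8 normalized counts per kilobase, lies at the same locus on the opposite strand, with no exonic base shared. Its normalized counts went the other way, with 4679, 4512 and 4652 with vehicle, 4319, 4581 and 4410.2 with oxamate and 4172, 4044 and 4018 with both compounds. Usp50 was lower with both compounds than with vehicle, at -0.20 ± 0.062 (edgeR adjusted p = 0.0261), and the difference from oxamate, -0.15 ± 0.062 (edgeR adjusted p = 0.137), did not pass. The call against vehicle passed under 8 of 16 alternatives, and in 3 of the 9 fits with a library left out.

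Of the members that act on histones, Usp16 removes ubiquitin from H2A. It had 6649, 8065 and 7549 with vehicle, 6319, 7560.1 and 7757 with oxamate and 9088, 8933 and 8544 with both compounds, and rose by 0.27 ± 0.079 (log2 fold change ± SE, edgeR adjusted p = 0.0286) over oxamate. The libraries with both compounds were the 3 highest. Usp42, a USP of p53 and H2B that is abundant in testis, had 9623, 9889 and 11300.1 with vehicle, 9986, 11413 and 11797 with oxamate and 9888, 9567 and 9045 with both compounds. Its difference from oxamate was -0.25 ± 0.072 (edgeR adjusted p = 0.0304), and vehicle overlapped with both other groups. The call for Usp42 was lost under 9 of 16 alternatives, DESeq2 among them, and that for Usp16 under 5 of 16.

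Usp24, a very large USP, had 3562, 3707 and 4084 with vehicle, 3974, 4224 and 4273 with oxamate and 4857, 4805 and 5002 with both compounds. Its groups overlapped only between vehicle and oxamate, and the rise over oxamate was small, 0.21 ± 0.066 (log2 fold change ± SE, edgeR adjusted p = 0.0458), and lost under 7 of 16 alternatives. Usp53, long counted among the family members without protease activity and found at tight junctions, had 751, 919 and 928 with vehicle, 742, 862 and 848 with oxamate and 1146, 1107 and 1110.2 with both compounds. The libraries with both compounds were the 3 highest, and the rise was 0.43 ± 0.086 (edgeR adjusted p = 0.00239), called under every alternative run.

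Usp29 and the X-linked Usp11 were lower when octyl-L-2HG was added. Usp29 is an imprinted gene next to Peg3 and is expressed from the paternal allele. Its normalized counts were low, 96.8, 123 and 134 with vehicle, 89.5, 116 and 111 with oxamate and 83.1, 54.2 and 60.8 with both compounds. Every library with both compounds was below the other 6, and the fall from oxamate was -0.70 ± 0.17 (log2 fold change ± SE, edgeR adjusted p = 0.0106). Its call was lost without library 5, 8 or 9, and 2582 of its exonic bases are shared with Zim3 on the opposite strand. Usp11, a repair protein that acts on BRCA2, had 307, 356 and 357 with vehicle, 381, 355 and 377 with oxamate and 299, 328 and 288 with both compounds. The fall from oxamate, -0.31 ± 0.094 (edgeR adjusted p = 0.0366), was lost under 10 of 16 alternatives, and vehicle overlapped with the libraries with both compounds.

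With both compounds against vehicle, 15 members were raised and 3 lowered. The raised members were Usp1, Usp2, Usp8, Usp10, Usp16, Usp20, Usp24, Usp28, Usp32, Usp38, Usp39, Usp40, Usp47, Usp49 and Usp53, and the lowered were Usp29, Usp50 and Usp46os1. The raised members are 28.8% of the 52, against 7.48% of all genes tested, and 32.6% of those with a mean of at least 100, against 16.0%. The lowered members are 5.77%, against 10.6%, and 4.65% at a mean of at least 100, against 13.6%. The median log2 fold change was 0.16 over the members and -0.045 over all genes tested, and at a mean of at least 100 it was 0.16 over the members and 0.03 over the genes. In the same comparison 6 of the 11 round spermatid markers fell and 2 rose, and their summed level dropped as given above; the part of this in the counts was not tested. The values of this comparison and of the previous ones rest partly on the same libraries. Total counts as the scaling gave 10 raised and 6 lowered, and without library 4 the counts were 22 and 5. Here too the share of all genes called in these refits was not counted.

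The members that differed here and in no other comparison included Usp2, a USP of cyclin D1. It had normalized counts of 17782, 16728 and 17257 in vehicle libraries 1 to 3, 21428, 19402 and 18915 in oxamate libraries 4 to 6, and 20011, 20197 and 19816 in libraries 7 to 9 with both compounds. Both treated groups were above vehicle and overlapped with each other. The difference was 0.19 ± 0.063 (log2 fold change ± SE, edgeR adjusted p = 0.0381) against vehicle with both compounds and 0.21 ± 0.063 (edgeR adjusted p = 0.0552) with oxamate alone, just over the threshold. Usp20, which binds the VHL ligase and acts on trafficking receptors, had 6439.8, 5455 and 6275 with vehicle, 7856, 6806 and 6486 with oxamate and 7175, 7118 and 7268 with both compounds. It stood 0.23 ± 0.077 (edgeR adjusted p = 0.0451) above vehicle with both compounds, and 0.22 ± 0.077 (edgeR adjusted p = 0.104) with oxamate alone, which was not called. The calls of Usp2 and Usp20 against vehicle each passed under 8 of 16 alternatives, and in 3 of the 9 fits with a library left out.

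Usp39, a splicing factor without the catalytic residues of a protease, had 1224, 1195 and 1211 with vehicle, 1321, 1212 and 1391 with oxamate and 1469, 1443 and 1469 with both compounds. All 3 libraries with both compounds were above the others, and the rise over vehicle was 0.25 ± 0.071 (log2 fold change ± SE, edgeR adjusted p = 0.0164). Usp40, a little-studied member, had 159.9, 183 and 199 with vehicle, 222, 189.6 and 217 with oxamate and 243, 256 and 232 with both compounds and was raised by 0.41 ± 0.11 (edgeR adjusted p = 0.0102). Usp49, which removes ubiquitin from H2B, was at a much lower level, with 24.9, 33.2 and 40.3 with vehicle, 38.1, 40.4 and 34 with oxamate and 51.7, 63.4 and 54.3 with both compounds. It was raised by 0.76 ± 0.19 (edgeR adjusted p = 0.00783), the largest rise among the 52 in this comparison, and was not called without vehicle library 1. Usp49 shares 4392 exonic bases with Gm20517 on the same strand, so its reads could have been dropped or assigned to that gene. Usp10, which binds the stress granule protein G3BP and acts on p53, was raised by 0.39 ± 0.13 (edgeR adjusted p = 0.0327) at normalized counts between 130.0 and 206 over the 9 libraries. The call of Usp40 was lost without library 8 and without vehicle library 1. The call of Usp39 passed under 11 of 16 alternatives and that of Usp10 under 10 of 16, each in 5 of the 9 fits with a library left out.

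With both compounds Usp47 stood 0.43 ± 0.067 (log2 fold change ± SE, edgeR adjusted p = 9.74e-05) above vehicle, Usp28 0.44 ± 0.077 (edgeR adjusted p = 0.000306) and Usp53 0.35 ± 0.086 (edgeR adjusted p = 0.00587). Usp24 stood 0.35 ± 0.067 (edgeR adjusted p = 0.000706) above vehicle, Usp8 0.33 ± 0.074 (edgeR adjusted p = 0.0029), Usp1 0.29 ± 0.073 (edgeR adjusted p = 0.00631) and Usp16 0.23 ± 0.079 (edgeR adjusted p = 0.0435), of which the call of Usp16 passed under 8 of 16 alternatives and in 3 of the 9 fits with a library left out. Usp29 was lower than in vehicle, at -0.86 ± 0.17 (edgeR adjusted p = 0.000875), the largest fall among the 52 that passed the test. The antisense Usp46os1 had 172, 159 and 160.3 with vehicle, 97.2, 129 and 147 with oxamate and 99.9, 98 and 114 with both compounds. All 6 treated libraries were below the 3 vehicle libraries, and the value with both compounds was -0.67 ± 0.14 (edgeR adjusted p = 0.00124). Usp46 itself, with 74 exonic bases in common with Usp46os1, was -0.23 ± 0.085 (edgeR adjusted p = 0.0724) and Usp46os2 -0.23 ± 0.14 (edgeR adjusted p = 0.277), neither past the threshold.

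**Figure D3:**
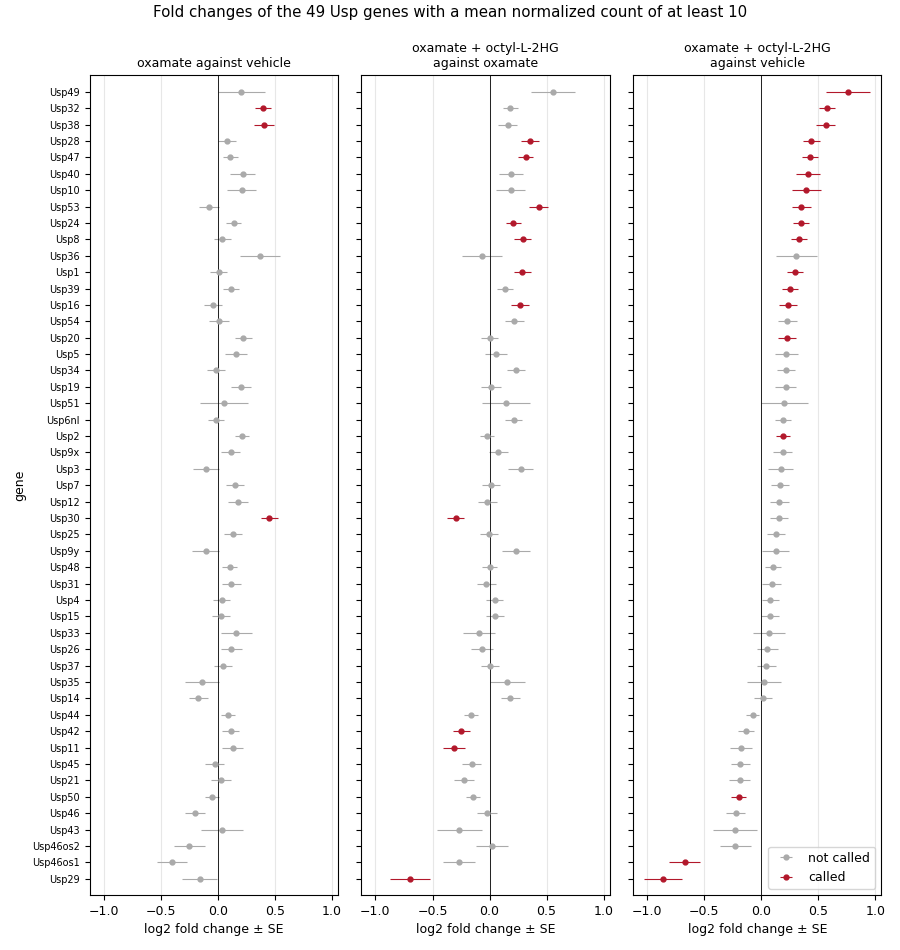
Log2 fold change ± SE (x axis) of the 49 members that averaged 10 or more normalized counts in the 3 comparisons, with members called at an adjusted p under 0.05 in red and the rest in gray. In the left panel 3 members are red, all to the right of 0, in the middle panel 7 lie to the right and 4 to the left, and in the right panel 15 and 3.

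Testing for any difference among the 3 groups called 16 of the 52 members, 30.8%, against 19.8% of all genes tested. Among the 43 with a mean of at least 100 it called 14, 32.6%, against 33.5% of genes at that level. The count of 16 was 31 without library 4 and 10 without library 7. The share of all genes was not counted in these refits, so nothing about the members is read from them. With both compounds against vehicle, 34 of the 43 (79.1%) had a value above 0, against 55.9% of genes at that level. The difference between these shares was not tested.

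**Figure D4:**
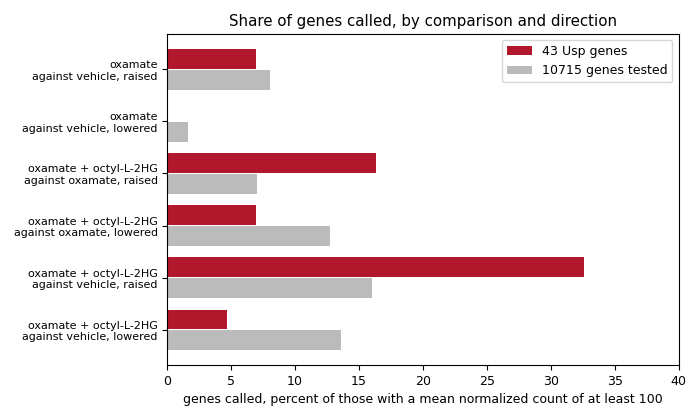
Percent of genes called (x axis, from 0) in each comparison and direction (y axis), for the 43 members that averaged 100 or more normalized counts (red) and for all 10715 genes at that level (gray). Both red bars for genes raised by octyl-L-2HG with oxamate are longer than the gray ones (16.3% and 32.6%), and the red bars for lowered genes are shorter.

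Some members known from work on male germ cells did not pass in any comparison. Usp9x, an X-linked USP of endocytosis and cell polarity, had 3809, 4276 and 4788 in vehicle libraries 1 to 3, 4039, 4889 and 4972 in oxamate libraries 4 to 6, and 5123, 4714 and 5057 in libraries 7 to 9 with both compounds. The largest of its 3 differences was 0.19 ± 0.084 (log2 fold change ± SE, edgeR adjusted p = 0.128), with both compounds against vehicle. Its Y-linked copy Usp9y, a gene of the male-specific region, had 384, 441 and 483 with vehicle, 319, 422 and 472 with oxamate and 542, 445 and 459.6 with both compounds, and no difference with an adjusted p under 0.25. The 2 genes are similar in sequence, so some reads may not tell them apart. Usp26, an X-linked gene with testis expression, had 299, 313 and 298 with vehicle, 296, 346 and 344 with oxamate and 336, 314 and 309 with both compounds, and its largest difference was 0.12 ± 0.092 (edgeR adjusted p = 0.565).

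Usp14 is the deubiquitinase bound to the proteasome, and its loss disturbs sperm formation in mice. It had 859, 985 and 895 with vehicle, 774, 829.6 and 823 with oxamate and 892, 911 and 999.8 with both compounds. The oxamate libraries were the 3 lowest, at -0.17 ± 0.080 (log2 fold change ± SE, edgeR adjusted p = 0.278) against vehicle, which did not pass, and the step with octyl-L-2HG was 0.18 ± 0.081 (edgeR adjusted p = 0.163). Usp14 shares 2169 exonic bases with Thoc1 on the opposite strand. Usp34, which acts in Wnt signalling, missed the threshold by little in the second comparison, at 0.23 ± 0.080 (edgeR adjusted p = 0.0645), and was called under 8 of 16 alternatives. Usp44, a USP of H2B and of the spindle checkpoint, differed by -0.16 ± 0.059 (edgeR adjusted p = 0.0796) there.

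In all, 31 members were called in no comparison. Among them the smallest adjusted p with oxamate was that of Usp46, -0.20 ± 0.085 (log2 fold change ± SE, edgeR adjusted p = 0.211). Usp6nl had the smallest of both other comparisons. Usp4 lay between 13943 and 17375 normalized counts over the 9 libraries. Several of the most abundant members were among the 31. Usp7 had 21863, 24412 and 25848 with vehicle, 22847, 27742 and 29249 with oxamate and 28898, 26867 and 26135 with both compounds, and its value with both compounds against vehicle was 0.16 ± 0.079 (edgeR adjusted p = 0.174). Usp15, a close relative of Usp4 and Usp11 that acts in TGF-beta signalling, had 17539.8, 20471 and 19925 with vehicle, 16539.7, 20993 and 21318 with oxamate and 21006, 20415 and 20452 with both compounds. Library 4 was the lowest of the 9 for Usp15, and the differences between groups lay between 0.03 and 0.07 on the log2 scale. For Usp19, which is anchored in the endoplasmic reticulum, library 4 was instead the highest, with 6488, 5648 and 6156 with vehicle, 8368, 6432 and 6162 with oxamate and 7024, 7232 and 7284 with both compounds. Its differences were 0.20 ± 0.090 (edgeR adjusted p = 0.24) with oxamate and 0.21 ± 0.090 (edgeR adjusted p = 0.108) with both compounds against vehicle. Usp37, a cell cycle USP, had 5172, 5921 and 6007 with vehicle, 5005, 6193 and 6372 with oxamate and 6056, 5932 and 5914 with both compounds, and its differences were between 0.00 and 0.04. Usp25, which acts in protein quality control, had 5774, 6183 and 6614 with vehicle, 5787, 7064 and 7452 with oxamate and 7081, 6801 and 6742 with both compounds, and its largest difference was 0.13 ± 0.078 (edgeR adjusted p = 0.414).

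The other uncalled members were at lower levels. Usp48 lay between 1726 and 2079.8 normalized counts over the 9 libraries and Usp12 between 1144 and 1524. Usp21, which acts on H2A, was lower in all 3 libraries with both compounds than in the other 6, at -0.22 ± 0.090 (log2 fold change ± SE, edgeR adjusted p = 0.123) against oxamate. Usp45, Usp54, Usp5 and Usp31 lay between 418 and 680.2 normalized counts. Usp3, another USP of H2A, had 181, 205 and 167 with vehicle, 163, 176 and 174 with oxamate and 198, 205 and 226 with both compounds, with the libraries with both compounds above the oxamate libraries by 0.27 ± 0.11 (edgeR adjusted p = 0.129). Usp35, Usp33, Usp43, Usp36 and Usp51 were between 26.5 and 118. Of these Usp36, a nucleolar USP, had 0.37 ± 0.18 (edgeR adjusted p = 0.288) with oxamate, at a level where the SE is wide.

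By role, 10 of 11 members listed for histones H2A or H2B were tested, of which 0 changed with oxamate, 1 rose and 1 fell with octyl-L-2HG over oxamate, and 2 rose with both compounds over vehicle (Usp16 and Usp49). Of 10 listed for DNA damage, replication and the cell cycle, 0 changed with oxamate, 3 rose and 2 fell in the second comparison, and 5 rose and 1 fell in the third. The 5 were Usp1, Usp10, Usp20, Usp28 and Usp47. Of 7 listed for endosomes, membrane traffic and the centrosome, 0, 1 and 2 rose in the 3 comparisons (Usp8, then Usp8 and Usp20) and 0 fell. Of 11 listed for signalling, 2 rose with oxamate, 1 in the second comparison and 5 in the third, and 0 fell. Of the 3 members linked to the endoplasmic reticulum and protein quality 0 passed in any comparison. Of the 2 mitochondrial members, Usp30 and Usp35, only Usp30 was called. Of the 4 listed for testis or germ cells, Usp26, Usp29, Usp50 and Usp9y, 0 rose in any comparison, 1 fell in the second (Usp29) and 2 in the third (Usp29 and Usp50). Of the 3 listed as without protease activity, 1 rose in the second comparison (Usp53) and 2 in the third (Usp39 and Usp53). These counts stand beside 3.96% of all genes tested raised and 1.22% lowered with oxamate, 3.18% and 8.06% in the second comparison, and 7.48% and 10.6% in the third, and with 2 to 11 members a group no difference between groups is read from them. The median log2 fold change with both compounds against vehicle was 0.17 for the histone group, 0.19 for the DNA damage group, 0.19 for the endosome group and 0.19 for the signalling group, beside 0.16 over all members. It was -0.07 for the testis group, 0.09 for the mitochondrial pair, 0.13 for the endoplasmic reticulum group and 0.25 for the group without protease activity. Usp6nl, which is no protease, was 0.21 ± 0.071 (log2 fold change ± SE, edgeR adjusted p = 0.0594) in the second comparison and not called.

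Outside the family, 59 genes of the same pathway were listed: other USP-like enzymes, USP cofactors, the other deubiquitinase families, ubiquitin genes and the ubiquitin-activating enzymes. Of the 58 tested, 5 rose and 2 fell with oxamate, 5 rose and 6 fell with octyl-L-2HG over oxamate, and 9 rose and 8 fell with both compounds over vehicle, with medians of 0.004, 0.015 and 0.04 on the log2 scale. Of all genes tested, 3.96% rose and 1.22% fell in the first of these comparisons, 3.18% and 8.06% in the second, and 7.48% and 10.6% in the third. Whether the listed genes differ from these shares was not tested. Wdr48, the activating partner of Usp1, Usp12 and Usp46, had normalized counts of 23696, 23860.1 and 24506 with vehicle, 25403, 25589.8 and 26764 with oxamate and 32496, 31365 and 30927 with both compounds. It rose by 0.26 ± 0.057 (log2 fold change ± SE, edgeR adjusted p = 0.00478) over oxamate, with the 3 libraries with both compounds above the other 6, as for Usp1. Usp12 itself differed by -0.02 ± 0.084 (edgeR adjusted p = 0.918) and Usp46 by -0.03 ± 0.087 (edgeR adjusted p = 0.906).

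At the proteasome, Uchl5, a second deubiquitinase there, rose by 0.30 ± 0.077 (log2 fold change ± SE, edgeR adjusted p = 0.0121) over oxamate, as did the lid subunit Psmd7 by 0.35 ± 0.073 (edgeR adjusted p = 0.00313). The lid deubiquitinase Psmd14 differed by 0.20 ± 0.087 (edgeR adjusted p = 0.145), which did not pass. The Josephin enzyme Josd1 was raised at each step, with 1302, 1096 and 1186 with vehicle, 2376, 1854 and 1856 with oxamate and 2586, 2632 and 2844 with both compounds and no overlap between groups. Its differences were 0.77 ± 0.093 (edgeR adjusted p = 2.72e-05) with oxamate and 0.38 ± 0.091 (edgeR adjusted p = 0.00902) with octyl-L-2HG added. Bap1, which removes ubiquitin from H2A, was raised by 0.33 ± 0.084 (edgeR adjusted p = 0.0243) with oxamate. Among the genes that fell, Tnfaip3 (A20), an inhibitor of NF-kB signalling, was -1.02 ± 0.15 (edgeR adjusted p = 5.24e-05) with both compounds against vehicle. Uba1, which starts ubiquitin conjugation, was -0.22 ± 0.073 (edgeR adjusted p = 0.0417) there. With octyl-L-2HG over oxamate Uba1 was -0.33 ± 0.073 (edgeR adjusted p = 0.00479). It was 1 of the 6 listed genes that fell in that comparison, against 5 that rose.

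USP transcripts are long. The median exon length was 7048 bases for the 43 members with a mean of at least 100 and 3899 for all genes at that level, and across the 10697 of those genes with a length the log2 fold change went with length (Spearman rho 0.31 with oxamate against vehicle, 0.17 with octyl-L-2HG over oxamate and 0.35 with both compounds against vehicle, across genes, which are not independent). With an offset for length in each library, the median of the 43 went from 0.09 to 0.03 in the first comparison, from 0.05 to 0.06 in the second and from 0.16 to 0.105 in the third. The median of all genes at that level went from 0.01 to -0.006, from 0.01 to 0.035 and from 0.03 to 0.04. With the offset, 30 of the 43 members and 6141 of the 10715 genes were above 0 in the third comparison, in place of 34 and 5987. The members called with both compounds against vehicle went from 15 raised and 3 lowered to 11 and 5, and those raised by octyl-L-2HG over oxamate from 7 to 8. The shares of all genes called with the offset were not counted. Whether the members still exceed them is not read from these counts. The called values given above for Usp30, Usp32, Usp38, Usp47, Usp28, Usp53, Usp24, Usp8 and Usp1 passed under that offset, and the rises of Usp2, Usp10, Usp16 and Usp20 over vehicle did not.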

How the data were processed

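RNA of sorted RS was selected by poly(A), made into stranded libraries and sequenced; the labels and the methods name different instruments. The authors trimmed reads with cutadapt 2.10, aligned them with TopHat2 2.1.1 to the mouse genome with Ensembl annotation, counted reads per gene with HTSeq 2.01 and deposited these raw counts. They also deposited a normalized signal, the count divided by a DESeq2 1.36.0 size factor per library. The table lists 55414 genes, of which 6250 have no values.

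Here, the 25128 genes with at least 10 summed counts went into edgeR 4.0.16 (R 4.3.3): TMM normalization, 9 libraries in one robust quasi-likelihood fit with group as the only term, Benjamini-Hochberg adjustment over all genes and a threshold of 0.05. Values in single libraries are the deposited normalized counts. Exon lengths and overlaps came from another annotation, matched by gene identifier for 99.6% of genes tested. Data were simulated for 25128 genes, with changes in the oxamate libraries only and 24928 genes left unchanged. There the test called 50 of 50 genes raised 1.5-fold and 20 of 50 raised 1.25-fold. Alternatives were other scalings and filters, DESeq2 1.42.0, a length offset fitted by loess in each library, the 2 compared groups alone and each library left out.

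Every member may be named. Values in all 9 libraries are given for up to 20 called members with the smallest p for any difference, the 3 highest per length and those with a role in male germ cells; Usp3, Usp7, Usp15, Usp19, Usp25, Usp37 and the pathway genes were added after their values were seen. The members and lists were chosen with earlier results of these data known. The value of 1 gene of the pathway list is not reported here.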

Additional observations from a re-analysis of the deposited data

How the results depend on the processing

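The 32 called changes of single members, over the 3 comparisons, had the same direction in all 512 refits, passed in 427 and passed in every refit for 16 of them. Without a filter on low counts, 1 member was lowered by oxamate, and octyl-L-2HG added to oxamate raised 11 members. The count lowered by octyl-L-2HG over oxamate was 2 with DESeq2 as the test, with DESeq2's size factors, without a filter and with only the 2 groups compared, and 7 with total counts. With both compounds against vehicle it was 6 with total counts and 5 with the length offset. Total counts put the median of all genes at -0.108 in that comparison, against -0.045 with TMM. The cause was not tested. With each library left out in turn, oxamate raised 3 to 6 members and lowered 0 to 1. Octyl-L-2HG over oxamate raised 3 to 9 and lowered 0 to 7, and both compounds over vehicle raised 10 to 22 and lowered 2 to 5. Between 10 and 31 members differed among the groups, 31 without library 4 and 10 without library 7, and 0 to 1 members rose with oxamate and fell with octyl-L-2HG. The share of all genes called was counted only for the fit described above. The counts of members in the refits therefore have no background beside them. No paired analysis was possible because the groups share no replicate numbers.

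Depth limits Usp13, Usp17la and Usp22, with mean normalized counts under 10, and the 6 symbols under the minimum. Most of the smaller changes put into simulated data, of the size of many differences reported above, were missed with 3 libraries a group.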
